A study of Mus musculus with 8 samples.

Results

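The co-stimulatory and co-inhibitory receptors of the immunoglobulin superfamily were described here across regulatory T (Treg) cells that had or lacked the forkhead transcription factor Foxp1. The set holds 10 genes out of the 27594 listed, chosen by name as the family's receptors on T cells: Ctla4, Cd28, Icos, Pdcd1 (PD-1), Lag3, Tigit, Havcr2 (TIM-3), Btla, Cd200 and Cd96. All 10 were listed in the count table, and all 10 passed the filter on low counts, Havcr2 through the aTreg libraries alone. RNA was sequenced from CD4+YFP+ cells of the spleen and peripheral lymph nodes of C57BL/6 mice aged 6 to 8 weeks. Every group carried Foxp3-YFP-Cre, in which YFP and Cre are made from the Foxp3 locus, so that the Foxp3 promoter drives Cre. The WT groups carried Foxp3-YFP-Cre alone, and the Foxp1-deficient groups carried Foxp1fl/fl Foxp3-YFP-Cre. Resting Treg (rTreg) cells were sorted by surface markers that included low CD44 and activated Treg (aTreg) cells by markers that included high CD44, which gave 4 groups with 2 replicates each. The labels do not say from which mice a library came, so that p-values measure the spread between these libraries.

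These receptors set the threshold of T cell activation. CD28 delivers the co-stimulatory signal that accompanies the T cell receptor when it binds CD80 or CD86 on an antigen-presenting cell, and CTLA-4 binds the same ligands with higher affinity and removes them from the partner cell. Treg cells hold CTLA-4 constitutively and depend on it for suppression. ICOS is a close relative of CD28, while PD-1, LAG-3, TIM-3, BTLA and TIGIT restrain activation when they bind their ligands. TIGIT and CD96 compete with the activating receptor CD226 for the poliovirus receptor and nectins, and CD200 is itself a ligand that signals through its receptor on myeloid cells.

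Counts on genes summed to between 6373170 and 15268623 per library, with a median of 12327710, and levels are given as depth-scaled counts (CPM) after TMM scaling. A count of 3 was used as the floor of detection and corresponds to between 0.196 and 0.471 CPM, a limit that covers counting error only. Foxp1, the targeted gene, had 353 and 383 CPM in WT rTreg cells and 341 and 337 CPM in the libraries labelled Foxp1-deficient rTreg (log2 fold change -0.12, SE 0.09, edgeR adjusted p = 0.46). In aTreg cells it had 234 and 230.0 CPM in WT and 126 and 101 CPM in Foxp1-deficient cells (log2 fold change -1.03, adjusted p = 0.00194). The genotype difference in aTreg minus that in rTreg cells was -0.92 for Foxp1 (edgeR adjusted p = 0.0477). The count covers the whole gene and was not split by exon. Since it did not pass the test in rTreg cells, it leaves the label of the rTreg libraries unchecked, and directions in rTreg cells rest on the labels. Why Foxp1 differed in aTreg cells alone was not tested. Foxp3 was between 429 and 645 CPM in every library, with a slight drop between WT and Foxp1-deficient rTreg cells (log2 fold change -0.32, adjusted p = 0.0496), and the 6 Treg markers together held 2679.6 to 3718 CPM. Replicate 2 libraries had 15098 to 21822 counts of Xist and replicate 1 libraries at most 3, while Y-linked genes were counted only in replicate 1, so that the sex of the mice and the replicate number cannot be told apart. Markers of other cells were low: the summed level reached 21.2 CPM for 5 B cell genes, 22.4 CPM for 6 myeloid genes, 10.3 CPM for 5 dendritic cell genes, 16.6 CPM for 2 CD8 genes and 4.23 CPM for 3 NK genes.

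The promoters of 3 receptors are shown because Foxp1 is a DNA-binding protein of the forkhead class. These 3 had an adjusted p under 0.05 between genotypes in both subsets. Each sequence is the 250 bases before the start that RefSeq annotates on GRCm38.p6, read 5′ to 3′ on the strand of the gene, with the short forkhead core TGTTT, or AAACA on the opposite strand, in capitals.
Ctla4, chr1:60908775-60909024, + strand: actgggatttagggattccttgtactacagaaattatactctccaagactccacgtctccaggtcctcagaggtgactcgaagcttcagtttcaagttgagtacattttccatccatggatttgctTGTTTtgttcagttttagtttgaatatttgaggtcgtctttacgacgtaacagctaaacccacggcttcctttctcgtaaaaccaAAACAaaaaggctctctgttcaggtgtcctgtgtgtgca
Cd200, chr16:45409054-45409303, - strand: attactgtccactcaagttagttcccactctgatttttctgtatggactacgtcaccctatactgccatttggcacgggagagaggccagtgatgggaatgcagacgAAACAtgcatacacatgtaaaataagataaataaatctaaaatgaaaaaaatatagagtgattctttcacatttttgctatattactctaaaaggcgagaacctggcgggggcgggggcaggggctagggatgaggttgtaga
Cd96, chr16:46120249-46120498, - strand: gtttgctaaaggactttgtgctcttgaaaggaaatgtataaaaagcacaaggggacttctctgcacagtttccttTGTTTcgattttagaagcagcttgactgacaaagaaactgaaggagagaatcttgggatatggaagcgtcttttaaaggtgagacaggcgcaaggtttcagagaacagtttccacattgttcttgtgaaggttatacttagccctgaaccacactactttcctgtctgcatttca
Ctla4 held the core 124 bases before its start and, reversed, 39 bases before it. Cd200 held it reversed 143 bases before the start, and Cd96 held it 175 bases before. Longer forkhead forms were searched on both strands, namely TGTTTAC, its variant with a changed second letter TATTTAC, and its variant with a changed last letter TGTTTAT, and these were in none of the 7 receptor promoters that had an entry (Ctla4, Pdcd1, Tigit, Havcr2, Btla, Cd200 and Cd96), and 10.7% of 27025 genes held at least 1 of the 3. The short core, which overlaps TGTTTAC and TGTTTAT and was chosen after those gave no match, was in 5 of the 7 and in 50% of all genes. These are matches of letters, and binding was not measured in these libraries. The Ctla4 start in RefSeq lies inside the longer gene that GENCODE M21 annotates (chromosome 1, 60887000 to 60915832, + strand), and 0 of the 250 bases were in its exons.

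The receptors spanned a wide range of levels within each subset. Per kilobase of exon, with the gene lengths behind the authors' FPKM values, Ctla4 was the highest of the 10 in WT rTreg cells (118 ± 47.2 CPM per kb, SD, n = 2), followed by Cd96 (74.3 ± 8.82), Btla (52.5 ± 4.19) and Cd28 (37.3 ± 0.862). No 2 neighbours in this order overlapped between their libraries. Lag3 (2.88 ± 0.870), Tigit (0.837 ± 0.0315) and Havcr2 (2 and 0 counts) stood at the bottom. In WT aTreg cells Ctla4 (265 ± 136) and Tigit (145 ± 63.3) led, with overlapping libraries, and Icos (95.9 ± 4.65) came next. In Foxp1-deficient aTreg cells Tigit (294 ± 18.0) was above Ctla4 (184 ± 85.3) in both libraries.

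**Figure D1:**
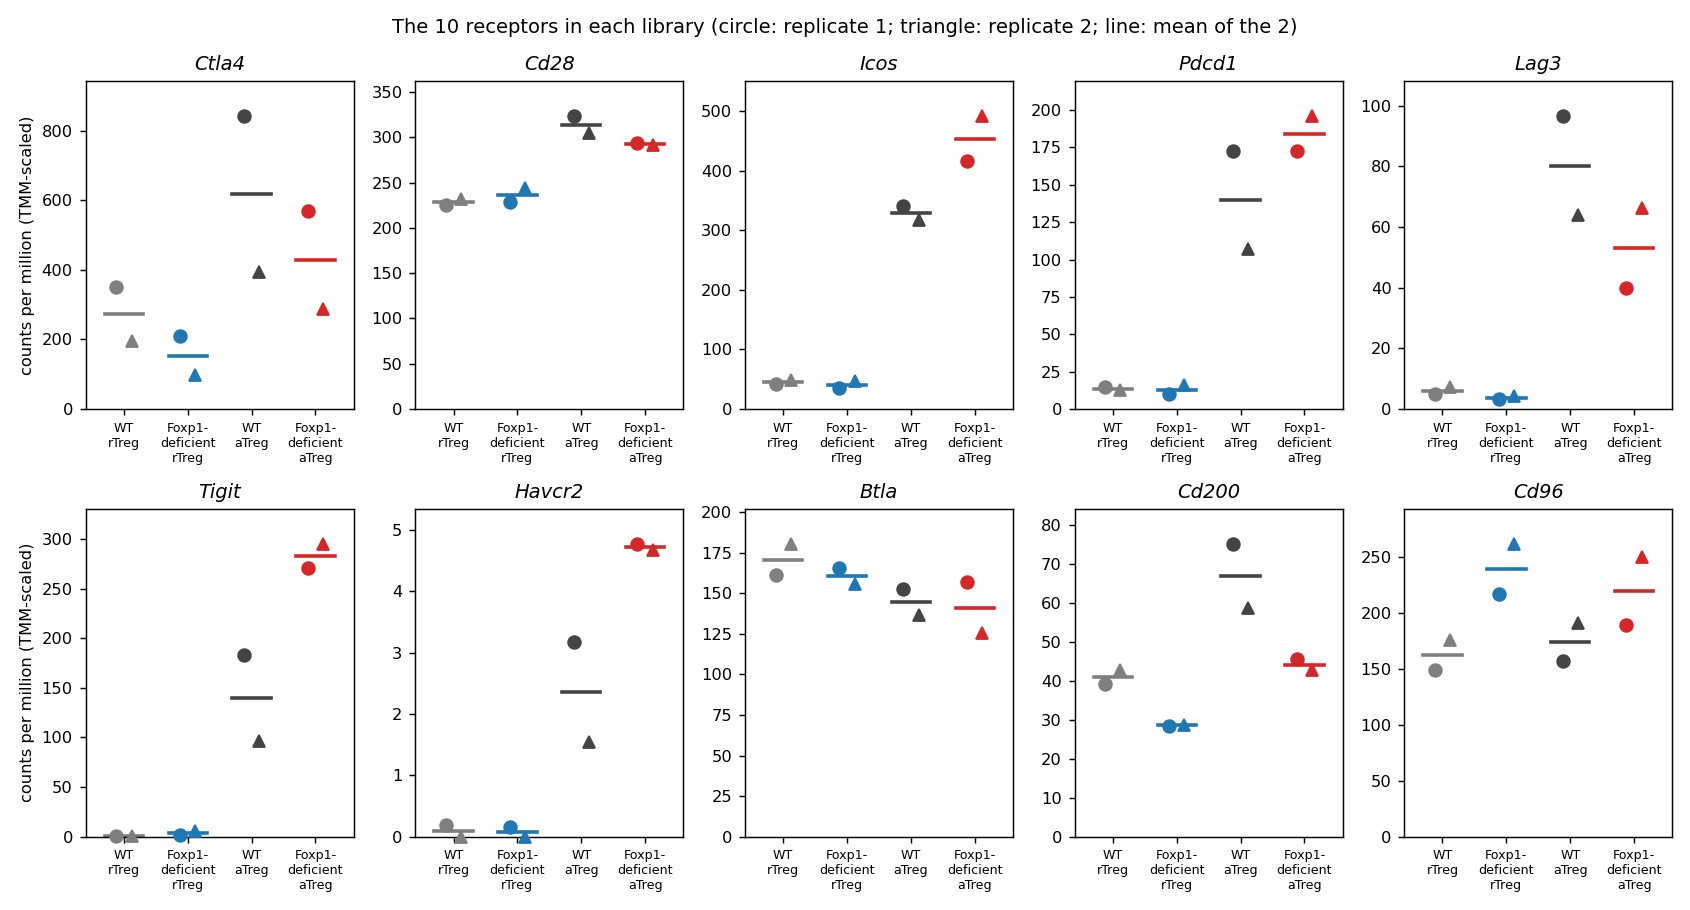
Level of each of the 10 receptors in each of the 8 libraries, in TMM-scaled CPM on a linear axis from 0. Circles are replicate 1, triangles replicate 2, and lines the mean of the pair in each group. Icos, Pdcd1, Lag3, Tigit and Havcr2 sit near 0 in all 4 rTreg libraries relative to the aTreg libraries, Btla and Cd96 do not, and Ctla4 is lower in replicate 2 than in replicate 1 in every group.

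The 10 receptors together summed to 340.3 and 296 CPM per kb in WT rTreg cells and 305 and 287 in Foxp1-deficient rTreg cells. In aTreg cells the sum was 981 and 646 in WT and 953 and 922 in Foxp1-deficient cells. The sum was therefore higher in every aTreg library than in every rTreg library, and its makeup differed. In WT rTreg cells, Ctla4, Cd96, Btla and Cd28 made up 44.4%, 20%, 14.5% and 10.8% of the sum in replicate 1. In replicate 2 they made up 28.5%, 27.2%, 18.7% and 12.8%, so that Ctla4 was only just above Cd96 there. Tigit made up at most 1.88% of the sum in an rTreg library. Its share was 15.5% and 19.3% in the WT aTreg libraries, whereas the Foxp1-deficient ones had 29.5% and 33.2%. Ctla4 took 36.8% and 26.2% of the sum in the WT aTreg libraries, against 25.6% and 13.4% in the Foxp1-deficient ones.

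**Figure D2:**
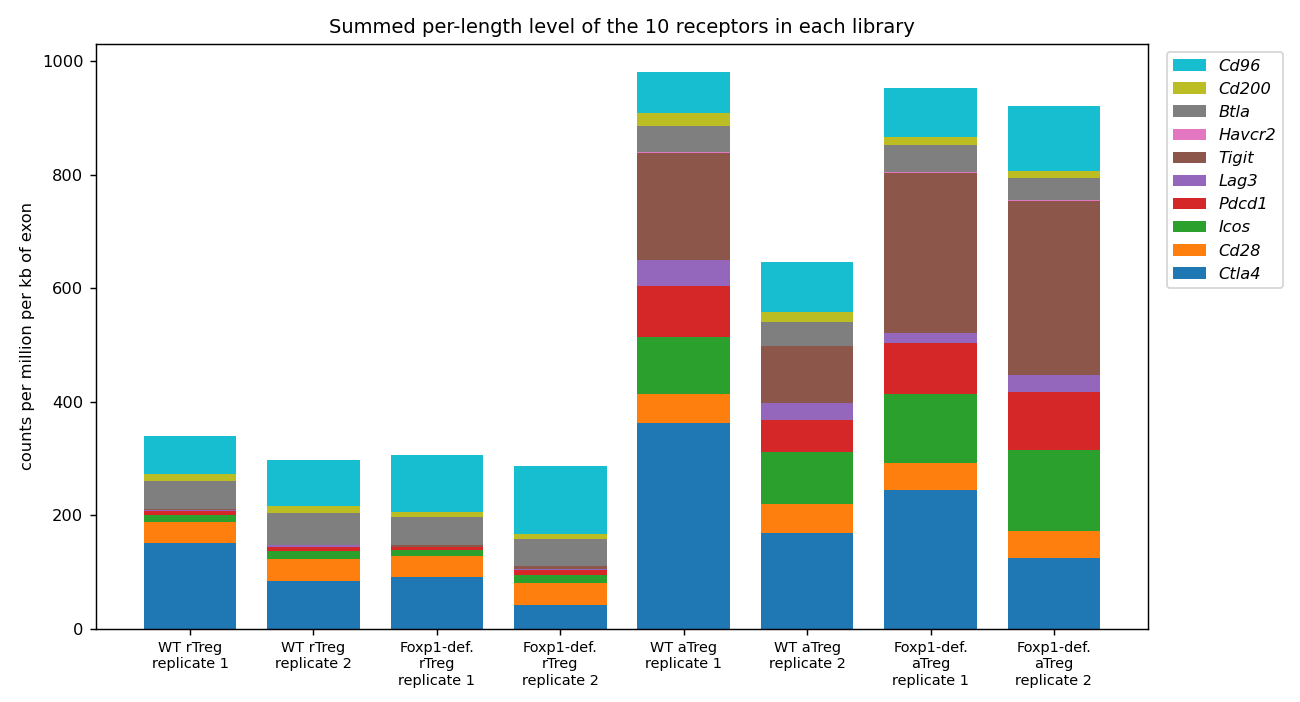
Summed per-length level of the 10 receptors in each library, in TMM-scaled CPM per kilobase of exon, stacked by receptor from Ctla4 at the base to Cd96 at the top. The 4 aTreg bars reach 646 to 981 and the 4 rTreg bars 287 to 340.3, and the brown Tigit segment is visible mainly in the aTreg bars.

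The first comparison asked which receptors differ between aTreg and rTreg cells. Of the 10 receptors, 6 were higher in aTreg cells at an adjusted p under 0.05 and at least 2-fold in WT and none was lower, where 9.5% of all 14540 genes tested were higher by that rule and 2.83% lower. The same counts, 6 higher and 0 lower, were found in Foxp1-deficient cells, where 11.3% of genes were higher and 4.39% lower. The 6 in both were Ctla4, Icos, Pdcd1, Lag3, Tigit and Havcr2. Havcr2 could be tested only through the aTreg libraries, where it is high, and without it the counts were 5 of 9 in each genotype. At an adjusted p under 0.05 alone, 8 receptors were higher in each genotype, with Cd28 and Cd200 added, against 18.2% of genes in WT and 21.9% in Foxp1-deficient cells. The median log2 fold change of the 10 was 1.99 in WT and 2.49 in Foxp1-deficient cells (1.13 and 1.51 without Havcr2), and that of all genes tested was -0.0046 and -0.018. The 2 groups did not overlap for 9 of the 10 receptors in WT and 8 in Foxp1-deficient cells, against 56.8% and 61.7% of all genes.

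Among the CD28 family, Icos had 42.5 and 49.3 CPM in WT rTreg cells and 340.3 and 318 CPM in WT aTreg cells. The groups stood far apart (log2 fold change 2.85, SE 0.11, edgeR adjusted p = 6.04e-06). In Foxp1-deficient cells it went from 35.0 and 46.7 CPM in rTreg to 416 and 492 CPM in aTreg cells (log2 fold change 3.47, SE 0.12, adjusted p = 2.27e-06). Ctla4 had 352 and 197 CPM in WT rTreg cells and 843 and 395 CPM in WT aTreg cells (log2 fold change 1.13, SE 0.08, adjusted p = 4.50e-05). Both aTreg values were above both rTreg values, by a narrow margin since replicates 1 and 2 differed by about as much as the subsets. In Foxp1-deficient cells Ctla4 had 211 and 96.5 CPM in rTreg and 569.6 and 288 CPM in aTreg cells, a log2 fold change of 1.51 (SE 0.08, adjusted p = 9.16e-06). Cd28 changed least of the 3. It had 225 and 232 CPM in WT rTreg cells and 323 and 304 CPM in WT aTreg cells (log2 fold change 0.46, SE 0.06, adjusted p = 0.00115), and its change in Foxp1-deficient cells was 0.31 (SE 0.06, adjusted p = 0.00557). Without the replicate block the Ctla4 calls were lost, at adjusted p = 0.202 in WT and 0.0948 in Foxp1-deficient cells.

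Of the inhibitory receptors, Pdcd1, which encodes PD-1, had 14.5 and 12.8 CPM in WT rTreg cells and 173 and 107 CPM in WT aTreg cells. Its log2 fold change was 3.34 (SE 0.26, adjusted p = 8.24e-05) in WT and 3.75 (SE 0.26, adjusted p = 3.55e-05) in Foxp1-deficient cells. Lag3, whose product binds MHC class II, had 4.78 and 7.38 CPM in WT rTreg cells and 96.5 and 64.0 CPM in WT aTreg cells. It rose by a log2 fold change of 3.72 (SE 0.33, adjusted p = 1.66e-04) in WT and 3.77 (SE 0.37, adjusted p = 1.81e-04) in Foxp1-deficient cells. Both genes were thus 10.1-fold to 13.6-fold higher in aTreg cells of either genotype, with no overlap between subsets.

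Tigit had the largest fitted difference of the 10 between WT subsets. It had 9 and 10 counts in the WT rTreg libraries and 1668 and 1507 in the WT aTreg libraries, that is 0.828 and 0.785 CPM against 183 and 96.5 CPM. The log2 fold change was 7.38 (SE 0.48, adjusted p = 3.73e-05) in WT and 6.09 (SE 0.39, adjusted p = 2.30e-05) in Foxp1-deficient cells. The interval from counting error alone for the WT ratio of summed counts, scaled for depth, ran from 102 to 265 around 159. Havcr2, which encodes TIM-3, had 2 and 0 counts in WT rTreg libraries and 29 and 24 in WT aTreg libraries, a ratio of 25.3 with a 95% counting interval of 6.66 to 214. In Foxp1-deficient cells it had 1 and 0 counts in rTreg and 57 and 65 counts in aTreg libraries, a ratio of 94.98 with an interval of 16.7 to 3782. Even so, Havcr2 stayed the lowest of the 10 per kilobase in aTreg cells, at 0.866 ± 0.426 CPM per kb in WT (SD, n = 2).

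Btla and Cd96 were not called between subsets in either genotype. Btla, whose product binds the herpesvirus entry mediator encoded by Tnfrsf14, had 161 and 180.5 CPM in WT rTreg cells and 153 and 137 CPM in WT aTreg cells (log2 fold change -0.24, SE 0.10, adjusted p = 0.115). The lower bound of its 95% interval, -0.49, lay inside the 2-fold line. Cd96 differed between subsets by a log2 fold change of 0.10 in WT (95% interval -0.04 to 0.24) and -0.13 in Foxp1-deficient cells (-0.27 to 0.02). Cd200 had 39.2 and 42.7 CPM in WT rTreg cells and 75.2 and 58.7 CPM in WT aTreg cells. Its log2 fold change of 0.70 (SE 0.11, adjusted p = 0.00265) was under the 2-fold line, and it was 0.62 (SE 0.12, adjusted p = 0.00474) in Foxp1-deficient cells. The 5 B cell genes, a lineage that also expresses Btla and Cd200, summed to 7.91 to 9.55 CPM in rTreg and 18.2 to 21.2 CPM in aTreg libraries, with Ms4a1 at 0 to 4 counts and Cd79b at 4.32 to 5.34 CPM in rTreg and 14.6 to 17.3 CPM in aTreg libraries, and the 5 dendritic cell genes to 0.552 to 1.91 and 5.12 to 10.3 CPM. Of the dendritic cell genes, Zbtb46 had 0.552 to 1.11 CPM in rTreg and 3.07 to 6.89 CPM in aTreg libraries. Xcr1 had 0 to 1 counts in rTreg and 9 to 34 in aTreg libraries, and Itgax 0 to 6 and 1 to 12. Flt3 and Siglech had 0 to 3 counts in every library. The part of B cells and dendritic cells in these differences was not tested. Among the subset and Treg markers in WT, Lef1 was lower (log2 fold change -1.04) and Prdm1 (2.47) and Ikzf2 (1.23) higher in aTreg cells, and Klrg1 had 1 and 2 counts in rTreg and 348 and 524 counts in aTreg libraries. In sorted populations measured in bulk, fewer cells that express a gene and less RNA per cell cannot be told apart.

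**Figure D3:**
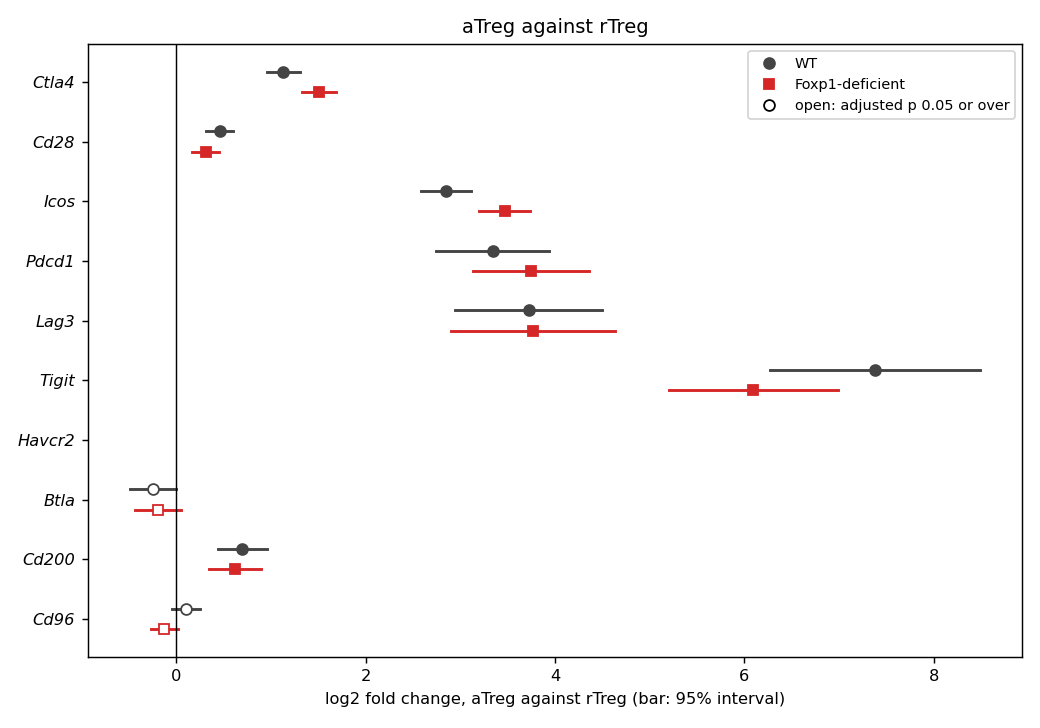
Log2 fold change of aTreg against rTreg cells for each receptor in WT (circles) and Foxp1-deficient (squares) cells, with bars for the 95% interval of the edgeR fit and open symbols where the adjusted p was 0.05 or over. Havcr2 is not drawn because its rTreg counts were 0 to 2, and the other points run from -0.24 for Btla to 7.38 for Tigit, both in WT.

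The second comparison asked which receptors differ when Foxp1 is deleted, within each subset. In rTreg cells, 1 of the 10 receptors was lower at an adjusted p under 0.05 and at least 1.5-fold, which was Ctla4, and 0 were higher, where 2.7% of all genes tested were lower and 2.9% higher. At an adjusted p under 0.05 alone, 1 receptor was higher (Cd96) and 2 were lower (Ctla4 and Cd200), against 6.57% and 5.45% of genes. In aTreg cells 1 of the 10 was lower by the same rule, Cd200, and 0 were higher, where 1.66% of genes were lower and 2.37% higher. At an adjusted p under 0.05 alone, Icos and Cd96 were higher and Ctla4 and Cd200 lower, against 4.11% and 2.77% of genes. The genotypes did not overlap for 4 receptors in rTreg and 5 in aTreg cells, against 45.2% and 41.8% of all genes. With 10 members, a count of 1 says little about the set beside these shares, and the genes are described singly. The median log2 fold change of the 10 was -0.13 in rTreg cells (-0.09 without Havcr2, which had 0 to 2 counts there) and 0.15 in aTreg cells, and that of all genes was 0.0029 and 0.0018.

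Ctla4 was lower in Foxp1-deficient cells within each replicate number. In rTreg cells, replicate 1 had 352 CPM in WT and 211 in Foxp1-deficient cells, and replicate 2 had 197 and 96.5. The pairs thus moved alike, although the 2 groups overlapped because replicate 1 was the higher in both. The log2 fold change was -0.88 (SE 0.08, 95% interval -1.06 to -0.71, edgeR adjusted p = 8.87e-04). In aTreg cells, replicate 1 had 843 CPM in WT and 569.6 in Foxp1-deficient cells, and replicate 2 had 395 and 288. The log2 fold change there was -0.51 (SE 0.08, adjusted p = 0.0103), a 1.42-fold difference that fell short of the 1.5-fold line. Over the alternatives, the value in rTreg cells lay between -1.01 and -0.78 and was negative in all 16, and without the replicate block its adjusted p was 0.506. In aTreg cells it lay between -0.57 and -0.45, also negative in all 16, with adjusted p = 0.79 without the block. There Ctla4 did not pass the adjusted p in 3 of the 16. Among these were the fit without the block and the fit without replicate 2 of Foxp1-deficient aTreg cells.

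Cd200 stood lower in Foxp1-deficient cells in both subsets, with no overlap between genotypes in either. In rTreg cells it had 39.2 and 42.7 CPM in WT and 28.5 and 28.7 CPM in Foxp1-deficient cells (log2 fold change -0.51, SE 0.12, adjusted p = 0.0335). In aTreg cells it had 75.2 and 58.7 CPM in WT and 45.5 and 42.7 CPM in Foxp1-deficient cells (log2 fold change -0.59, SE 0.11, adjusted p = 0.0226). This last difference, 1.51-fold, lay just inside the line of 1.5-fold and that of rTreg cells, 1.43-fold, just outside. The call in aTreg cells was lost without the replicate block (adjusted p = 0.12), with limma on FPKM values (0.0715), with limma-voom and without the filter, where the fold fell under 1.5, and when either Foxp1-deficient aTreg library or replicate 1 of WT aTreg cells was left out (0.0853 to 0.178), while the value stayed between -0.78 and -0.40 over all 16 alternatives.

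Cd96, an adhesion receptor for the poliovirus receptor, was higher in Foxp1-deficient cells. It had 149 and 176 CPM in WT rTreg and 217 and 262 CPM in Foxp1-deficient rTreg cells, with no overlap (log2 fold change 0.56, SE 0.06, adjusted p = 0.00246). The difference was 1.47-fold, close under the line. In aTreg cells it had 157 and 191 CPM in WT and 189 and 251 CPM in Foxp1-deficient cells, which overlapped, although each pair rose (log2 fold change 0.33, SE 0.06, adjusted p = 0.0228). Without the block the adjusted p-values of Cd96 were 0.172 and 0.517, and over 16 alternatives the adjusted p was over 0.05 in 1 in rTreg and 8 in aTreg cells. Icos passed the adjusted p in aTreg cells, with 340.3 and 318 CPM in WT and 416 and 492 CPM in Foxp1-deficient cells (log2 fold change 0.46, SE 0.10, adjusted p = 0.0424). Its adjusted p was over 0.05 in 9 of 16 alternatives, and the value ran from 0.27 without replicate 2 of WT aTreg cells to 0.66 without replicate 1. The highest adjusted p, 0.286, came without replicate 2 of Foxp1-deficient aTreg cells (0.41). In rTreg cells its log2 fold change was -0.16 (95% interval -0.43 to 0.11, adjusted p = 0.41).

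Tigit was higher in each Foxp1-deficient library than in any WT library of the same subset, yet did not pass the test. In aTreg cells it had 183 and 96.5 CPM in WT and 271 and 295 CPM in Foxp1-deficient cells (log2 fold change 1.07, SE 0.27, adjusted p = 0.0589). In rTreg cells the Foxp1-deficient libraries had 12 and 72 counts against 9 and 10 in WT (log2 fold change 2.35, SE 0.74, adjusted p = 0.0811). The Foxp1-deficient rTreg libraries differed from each other, at 1.91 and 5.19 CPM, and without the second of them the log2 fold change was 1.04 (adjusted p = 0.62). The fits differed for Tigit. In aTreg cells limma-voom gave adjusted p = 0.0285 and DESeq2 0.512, and in rTreg cells DESeq2 gave 0.0373 and limma-voom 0.308. Over 16 alternatives its adjusted p was under 0.05 in 3 in aTreg and 5 in rTreg cells. Havcr2 had 29 and 24 counts in WT aTreg libraries and 57 and 65 in Foxp1-deficient aTreg libraries (log2 fold change 1.09, SE 0.40, adjusted p = 0.152), and in rTreg libraries of both genotypes it was at or under the floor.

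Cd28, Btla, Pdcd1 and Lag3 did not pass the adjusted p between genotypes in either subset. Cd28 differed by a log2 fold change of 0.05 in rTreg cells (95% interval -0.10 to 0.19) and -0.10 in aTreg cells (-0.24 to 0.04), which excluded a 1.5-fold change in either direction. Btla differed by -0.09 in rTreg cells (-0.34 to 0.15) and by -0.04 in aTreg cells (-0.28 to 0.20). For both, the interval stayed within the 1.5-fold line. For Pdcd1 and Lag3 it did not, so that a difference of that size remains possible. Pdcd1 had 173 and 107 CPM in WT aTreg cells and 172 and 196 CPM in Foxp1-deficient aTreg cells (log2 fold change 0.42, SE 0.22, adjusted p = 0.291), and in rTreg cells the value was 0.01 (SE 0.30). Lag3 had 96.5 and 64.0 CPM in WT aTreg cells and 39.8 and 66.3 CPM in Foxp1-deficient aTreg cells (log2 fold change -0.61, SE 0.27, adjusted p = 0.22). The 2 pairs of aTreg libraries disagreed for Lag3, with a difference of -1.27 in replicate 1 and 0.05 in replicate 2. In rTreg cells Lag3 had 4.78 and 7.38 CPM in WT and 3.18 and 4.33 CPM in Foxp1-deficient cells, with no overlap and both pairs lower (log2 fold change -0.66, SE 0.47, adjusted p = 0.4). The fold was over 1.5 in both subsets, and the adjusted p in rTreg cells was under 0.05 in 2 of 16 alternatives, those without replicate 1 or 2 of WT aTreg cells (-0.72 in each, adjusted p = 0.0282 and 0.0266).

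**Figure D4:**
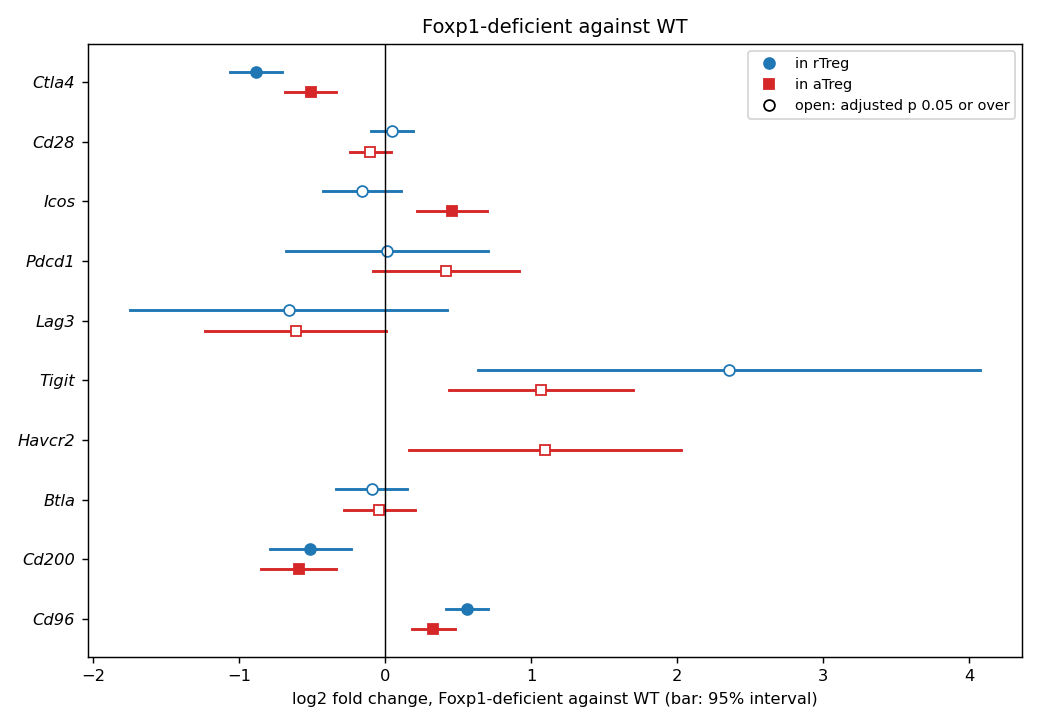
Log2 fold change of Foxp1-deficient against WT cells for each receptor in rTreg (circles) and aTreg (squares) cells, with bars for the 95% interval of the edgeR fit and open symbols where the adjusted p was 0.05 or over. Ctla4 and Cd200 lie below 0 and Cd96 above 0 in both subsets, Tigit has the widest interval, 0.63 to 4.07 in rTreg cells, and Havcr2 in rTreg cells is not drawn because its counts were 0 to 2.

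Whether the genotype difference itself differed between subsets was tested as an interaction, and 0 of the 10 receptors passed, where 0.33% of all genes did. The lowest unadjusted p-values of the 10 were those of Icos, Ctla4 and Cd96, and none of these passed after adjustment. The log2 genotype difference in aTreg cells minus that in rTreg cells was 0.62 for Icos (SE 0.16, edgeR adjusted p = 0.15), 0.38 for Ctla4, whose decrease was the smaller in aTreg cells (SE 0.11, adjusted p = 0.188), and -0.23 for Cd96 (SE 0.09, adjusted p = 0.33). DESeq2 called Icos in this test (adjusted p = 0.0325), as did edgeR without replicate 1 of WT aTreg cells (0.82, adjusted p = 0.0268) and without the filter on low counts (adjusted p = 0.00145), which also called Ctla4 (0.41, adjusted p = 0.0125). The other 12 of 15 alternatives for Icos and 14 for Ctla4 did not pass, and limma-voom called 0 of the 10. In the aTreg comparison 2 of the 4 resting markers were called lower in Foxp1-deficient cells, among them Ccr7 (log2 fold change -1.56, adjusted p = 5.98e-04). The other 2 resting markers were not called. Of the 4 activation markers 3 were called higher, Klrg1 (1.15), Icam1 (0.67) and Prdm1 (0.65). Cd44 was not called and had 212 and 214 CPM in WT and 174 and 197 CPM in Foxp1-deficient aTreg cells. Of all genes, 2.37% were higher and 1.66% lower in that comparison. In rTreg cells 1 of the 4 activation markers was called between genotypes, Icam1 (1.16, adjusted p = 0.00277), and 0 of the 4 resting markers. Cd44 was lower in Foxp1-deficient rTreg cells (-0.43, adjusted p = 0.0339), by less than 1.5-fold. The part of these shifts in the receptor values was not tested. The 6 myeloid genes summed to 22.4 CPM in Foxp1-deficient aTreg and 12.4 CPM in Foxp1-deficient rTreg cells of replicate 1 against 0.785 to 4.82 in the other libraries, led by S100a8 (85 and 18 counts there) and S100a9 (109 and 21 counts). In rTreg cells the sums were 2.02 and 0.785 CPM in WT and 12.4 and 3.39 CPM in Foxp1-deficient cells, and S100a8 (adjusted p = 0.0454) and S100a9 (adjusted p = 0.0373) were called higher. Their part in the receptor values was not tested.

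Ctla4 also differed between the replicate numbers. Its log2 fold change from replicate 1 to replicate 2 was -1.01 (SE 0.05, edgeR adjusted p = 8.89e-05), and replicate 2 was the lower in each of the 4 groups. It was the 1 receptor of 10 called by that contrast, where 4.72% of all genes were lower and 1.41% higher in replicate 2 by at least 1.5-fold, and 8.71% and 9.79% at an adjusted p alone. Cd96 was higher in replicate 2 in each group (log2 fold change 0.30, SE 0.04, adjusted p = 0.00515), under 1.5-fold, and the other 8 receptors did not pass. Cd28, the neighbour of Ctla4, differed by 0.01 (95% interval -0.09 to 0.11). Sex and replicate number cannot be told apart in this difference, and the labels do not say which libraries were sequenced in which of the 2 rounds. The order of Ctla4 levels, from WT aTreg cells (619 ± 317 CPM, SD, n = 2) through Foxp1-deficient aTreg cells (429 ± 199) and WT rTreg cells (274 ± 110) to Foxp1-deficient rTreg cells (154 ± 80.8), was the same within replicate 1 and within replicate 2, although neighbours in the order overlapped.

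Ratios within a library do not depend on how libraries are scaled. They were set for receptors that share ligands, and for Icos and Cd28 as close relatives. Per kilobase, Ctla4 was 4.12 and 2.23 times the level of Cd28 in WT rTreg cells and 2.42 and 1.04 times in Foxp1-deficient rTreg cells. In aTreg cells the ratio was 6.85 and 3.40 in WT and 5.10 and 2.60 in Foxp1-deficient cells. It was lower in Foxp1-deficient than in WT cells at each replicate number. The ratio of Icos to Cd28 was 0.337 and 0.379 in WT rTreg cells and 1.88 and 1.86 in WT aTreg cells. It reached 2.53 and 3.01 in Foxp1-deficient aTreg cells. Icos thus stood below Cd28 in every rTreg library and above it in every aTreg library.

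Tigit and Cd96 were set against Cd226, the activating receptor that shares the poliovirus receptor with them. The ratio of Tigit to Cd226 was 0.0483 and 0.0407 in WT rTreg cells and 0.123 and 0.265 in Foxp1-deficient rTreg cells. In aTreg cells it was 5.53 and 2.73 in WT and 8.72 and 9.08 in Foxp1-deficient cells. Tigit therefore stood below Cd226 in rTreg and above it in aTreg libraries. Cd96 stood above Cd226 in all 8 libraries, by 3.83 and 4.03 times in WT rTreg, 6.15 and 5.90 times in Foxp1-deficient rTreg, 2.10 and 2.38 times in WT aTreg and 2.69 and 3.40 times in Foxp1-deficient aTreg cells. With 2 libraries in each group the smallest p-value of an exact permutation test is 0.333, so these ratios were not tested.

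**Figure D5:**
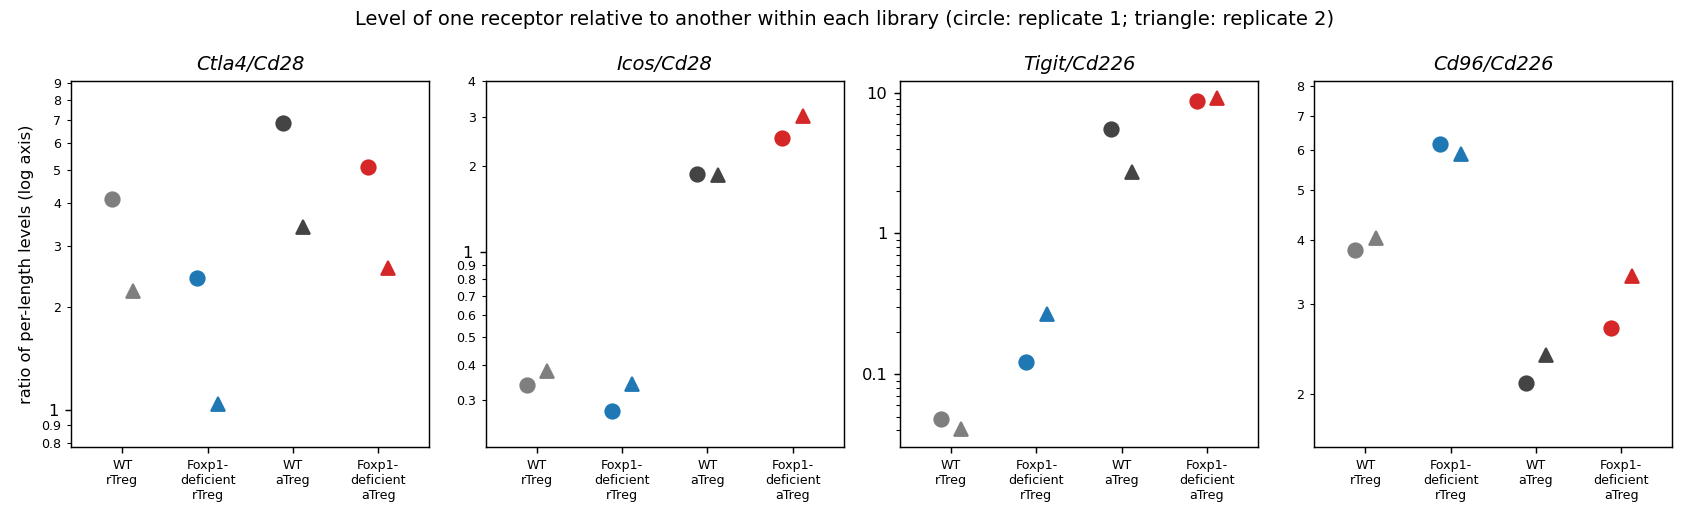
Ratio of the per-length level of Ctla4 and Icos to Cd28, and of Tigit and Cd96 to Cd226, in each library on a log axis. Circles are replicate 1 and triangles replicate 2. Ctla4/Cd28 falls from 4.12 to 2.42 and from 2.23 to 1.04 between WT and Foxp1-deficient rTreg cells at the same replicate number, and Tigit/Cd226 runs from 0.0407 to 9.08.

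Other co-receptors on T cells were counted from a list of 18, of which 15 were in the table and 13 were tested. Most are of the same family, but Cd5 and Cd6 are not. Between genotypes, 2 were lower in rTreg cells, Cd7 (log2 fold change -1.13, SE 0.18, adjusted p = 0.00964) and Cd200r1 (-0.80, SE 0.18, adjusted p = 0.0298), and 0 were higher, against 2.7% and 2.9% of all genes. Cd200r1 encodes the receptor of CD200. In aTreg cells 1 was lower, Cd160 (-0.84, SE 0.19, adjusted p = 0.0441), whose product binds the herpesvirus entry mediator as BTLA does. There 0 were higher, and 1.66% of all genes were lower and 2.37% higher. Between subsets in WT, 4 were higher in aTreg cells and 0 lower, against 9.5% and 2.83% of all genes. The largest of these changes was in Pvrig, a receptor for nectin-2, with 0 and 1 counts in WT rTreg and 65 and 134 counts in WT aTreg libraries. With 0 and 2 counts in Foxp1-deficient rTreg libraries, Pvrig could be tested only through the aTreg libraries, where it is high. Cd200r1 followed with a log2 fold change of 1.74 (SE 0.15, adjusted p = 1.35e-04). The median log2 fold change of the 13, Pvrig included, was 0.06 in that comparison, against 1.13 for the 9 receptors other than Havcr2.

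Ligands of the receptors were listed as 18 genes, of which 16 were in the table and 12 were tested. In rTreg cells 1 was called between genotypes, Icosl, the ligand of ICOS, which rose in Foxp1-deficient cells (8.55 and 11.1 CPM in WT against 19.6 and 24.8, log2 fold change 1.18, SE 0.15, adjusted p = 0.00409). Of all genes, 2.9% were higher and 2.7% lower in that comparison. In aTreg cells 1 was called, Lgals3, a galectin that binds LAG-3 (3.07 and 6.08 CPM in WT against 11.2 and 12.2, log2 fold change 1.34, SE 0.31, adjusted p = 0.0435). There 2.37% of all genes were higher and 1.66% lower. Icosl is also made by B cells, whose 5 markers summed to 7.91 and 8.95 CPM in WT and 9.55 and 9.16 CPM in Foxp1-deficient rTreg cells, and Lgals3 by myeloid cells, and the part of such cells was not tested. Between subsets in WT, 6 of the 12 were higher in aTreg cells and 0 lower, against 9.5% and 2.83% of all genes, led by Nectin1 (5 and 2 counts in WT rTreg against 60 and 96 in WT aTreg libraries) and Lgals3 (6 and 2 against 28 and 95). Nectin1, Nectin2, Lgals3 and Cd80 were under the filter's cutoff of 0.811 CPM in every rTreg library. They could be tested only through the aTreg libraries, so the filter favours a higher count there. Of 31 signalling and trafficking partners of the receptors, all of them tested, 2 rose in Foxp1-deficient rTreg cells and 0 were called in aTreg cells or between WT subsets. The 2 were Tec, a kinase downstream of CD28 (log2 fold change 1.34, SE 0.13, adjusted p = 0.00119), and Trat1, an adaptor that brings CTLA-4 to the cell surface (0.79, SE 0.09, adjusted p = 0.0031). A rise in rTreg cells was called for 6.45% of the partners and 2.9% of all genes, and a count of 2 says little about the list. Between Foxp1-deficient subsets 1 partner was higher and 3 were lower, against 11.3% and 4.39% of all genes.

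On GRCm38, by GENCODE M21, most of the receptors lie in 2 groups. Cd28 (60716800 to 60773359), Ctla4 and Icos (60977927 to 61000320) are adjacent on chromosome 1, all on the + strand, 113.6 kb and 62.1 kb apart with 0 protein-coding genes between them. These neighbours behaved unlike each other: in WT, the log2 fold change of aTreg against rTreg was 0.46 for Cd28, 1.13 for Ctla4 and 2.85 for Icos. In Foxp1-deficient rTreg cells the difference from WT was 0.05, -0.88 and -0.16. On chromosome 16, Btla (45224315 to 45257670, + strand) and Cd200 (45382135 to 45409053, - strand) have 0 protein-coding genes between them and lie 124.5 kb apart. Cd96 lies 626.6 kb beyond Cd200, with 10 protein-coding genes between, of which 3 were tested and 1, Plcxd2, was called higher in Foxp1-deficient rTreg cells (0.68, adjusted p = 0.00109), against 2.9% of all genes. Tigit lies 1560.2 kb before Btla, with 21 protein-coding genes between, of which 18 were tested. Pdcd1 (chromosome 1, 94038305 to 94052553), Lag3 (chromosome 6, 124904361 to 124911705) and Havcr2 (chromosome 11, 46454935 to 46481255) lie apart from both groups. Of the 18 genes tested between Tigit and Btla, Sidt1 (-1.08, adjusted p = 5.25e-04), Zdhhc23 (-1.13, adjusted p = 0.016) and Cd200r1, already named above, were lower in Foxp1-deficient rTreg cells. Among all genes 2.7% were lower by that rule, and an effect of the region was not tested.

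The genes whose levels followed Ctla4 most closely over the 8 libraries were Zmym3 (Pearson r = 0.99 on log2 CPM), Tmem8b (0.99), Slc41a3 (0.98), Med23 (0.98) and Cep131 (0.98). These correlations describe 8 libraries that share the differences of subset, genotype and replicate number. Among the receptors, Cd200 was the most like it (r = 0.84) and Cd96 the least (r = -0.65).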

How the data were processed

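Paired-end RNA-seq reads of 8 libraries (NEBNext Ultra kit) were processed by the authors, who per the methods used trim_galore for trimming, Picard to remove duplicates and htseq-count for counting on genes. The submitters' processing notes name HISAT2 2.0.5, HTSeq and mm10. The deposited counts are whole numbers per Ensembl gene, not normalized. The FPKM values deposited by the authors equal each count divided by the library total and by a single length per gene, and served for per-length levels and as an alternative.

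The test was edgeR 4.0.16 under R 4.3.3 (glmQLFit, glmQLFTest) on all 8 libraries, with a mean per group, the replicate number as a block and TMM scaling, over the 14540 of 27594 genes that passed filterByExpr (minimum count 10). Two-sided p-values were adjusted over all genes tested (Benjamini-Hochberg). Calls needed an adjusted p under 0.05 and at least 1.5-fold (genotype, replicate number) or 2-fold (subset), and the interaction an adjusted p alone. The block follows the paired analysis in the study's methods. Deviations from group means correlated between same-numbered libraries at 0.355 to 0.597 over the 6 pairs of groups. Replicates differed by more than sampling noise (chi-square per degree of freedom 14.1 to 21.4).

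The members, lists and tests were chosen with earlier results of these data known. The genes named are the 10 receptors, Foxp1, Foxp3, genes of the other lists called between genotypes, the 2 with the largest called increase and decrease per list between WT subsets, the 5 most correlated with Ctla4, and genes between neighbouring receptors. Some genes that this rule names are not reported here. S100a8 and S100a9 were named after their values were seen. Alternatives were no block, limma-voom (limma 3.58.1), DESeq2 1.42.0, scaling by median-of-ratios factors, testing all genes without a filter, keeping genes at 1 CPM in 2 libraries, the libraries of a comparison alone, limma on log2(FPKM + 1) for genes with a mean of at least 1, and leaving out each library. The fits were tested on simulated data. Positions are from GENCODE M21 (GRCm38) and promoters from RefSeq (GRCm38.p6). Motifs in the proteins were not analysed here.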

Additional observations from a re-analysis of the deposited data

Results flagged for a closer look

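Cd28 and Icos drew attention because their genotype difference had opposite signs in rTreg and aTreg cells in each pair of same-numbered libraries. The interaction, that is the difference in aTreg minus the difference in rTreg cells on the log2 scale, was -0.15 for Cd28 (edgeR adjusted p = 0.531). Icos had an interaction of 0.62 (adjusted p = 0.15), with pair differences of -0.28 and -0.08 in rTreg and 0.29 and 0.63 in aTreg cells. Neither passed the adjusted threshold of 0.05 with all 8 libraries and the filter on low counts in edgeR. For Icos, DESeq2 gave adjusted p = 0.0325, edgeR without the filter 0.00145 and edgeR without replicate 1 of WT aTreg cells 0.0268, and the other 12 alternatives were over 0.05.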

How the results depend on the processing

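The counts of 6 receptors higher and 0 lower in aTreg cells stayed within 1.5 times under every alternative in both genotypes. Without the replicate block 5 were higher in each, Ctla4 being lost (log2 fold change 1.17 in WT and 1.49 in Foxp1-deficient cells), and 0 were called lower between genotypes, since Ctla4 in rTreg cells (-0.84) and Cd200 in aTreg cells (-0.60) were lost. The block changed no other call of a receptor by the full rule. At an adjusted p under 0.05 alone, 0 receptors passed between genotypes in either subset without the block. With it, 3 passed in rTreg and 4 in aTreg cells. Between genotypes in aTreg cells, limma-voom called 1 receptor higher (Tigit, 1.13) and 0 lower, log2(FPKM + 1) values gave 0 lower, and no filter on low counts gave 2 higher (Tigit and Havcr2). In rTreg cells 1 receptor, Tigit, was called higher by DESeq2 (2.14), without the filter (2.34) and on the 4 rTreg libraries alone (2.14). The interaction called 1 receptor with DESeq2 (Icos) and 2 without the filter (Icos and Ctla4). Pdcd1 in rTreg cells, near 0 with all 8 libraries, turned to -0.035 without the block, -0.069 with DESeq2, -0.0034 with median-of-ratios factors, -0.0081 without the filter, -0.11 on FPKM values and -0.050 on its own libraries, and Cd28 between replicate numbers to -0.028 on FPKM values. The causes were not tested.

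Leaving out 1 library at a time, with the remaining library of that group assumed to vary like the others, gave 0 to 1 receptors higher and 1 to 2 lower between genotypes in rTreg cells, 0 to 3 higher and 0 to 2 lower in aTreg cells, 0 to 1 higher for the interaction and 0 to 1 higher between replicate numbers. Without WT aTreg replicate 1, Icos (0.66), Pdcd1 (0.87) and Tigit (1.70) were called higher in aTreg cells, Icos in the interaction (0.82), and Cd200 in aTreg cells was lost (-0.40), as it was without either Foxp1-deficient aTreg library (-0.59). Without WT aTreg replicate 2, Lag3 was called lower in aTreg cells (-1.24). Without either of these WT libraries, Tigit (2.28) and Lag3 (-0.72) were called in rTreg cells, and without WT rTreg replicate 1, Cd96 (0.59) and Cd200 (-0.66). Values that changed sign ran from -0.54 to 0.32 for Pdcd1, -0.27 to 0.080 for Btla and -0.011 to 0.093 for Cd28 between genotypes in rTreg cells, from -0.0021 to 0.87 for Pdcd1, -1.24 to 0.023 for Lag3 and -0.19 to 0.10 for Btla in aTreg cells, and from -0.016 to 0.052 for Cd28 between replicate numbers. Havcr2 in rTreg cells, at 0 to 2 counts, is below what the depth resolves.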
